A study of Mus musculus with 12 samples.

Results

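The 10 glucocorticoid-responsive genes described here are the glucocorticoid receptor gene Nr3c1 and 9 genes known to be induced by glucocorticoids in liver or other tissues: Fkbp5, Tsc22d3, Errfi1, Sgk1, Cebpb, Cebpd, Klf9, Klf15 and Zbtb16. They were taken by gene symbol from a table of 48795 genes, and each symbol matched 1 row. All 10 were among the 13812 genes with enough counts to be tested. Bulk RNA was sequenced from whole livers of female mice aged 4 months, kept on normal chow, that were either wild-type littermates (Nts+/+) or lacked the gut peptide neurotensin in the whole body (Nts-/-). The mice were fed ad libitum or fasted for 22 h before the liver was taken, so that 4 groups of 3 mice were formed. Mice 254, 257 and 323 were Nts+/+ and fed, 265, 282 and 322 Nts+/+ and fasted, 277, 303 and 319 Nts-/- and fed, and 284, 290 and 295 Nts-/- and fasted. All 12 libraries carry the same batch label. Corticosterone levels of these mice and the hour of the day at which livers were taken are not given in the sources used here. The comparisons ask how these genes responded to fasting in each genotype, and whether they or their response differed by genotype label.

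Glucocorticoids (corticosterone in the mouse) enter liver cells and bind the glucocorticoid receptor, which is held ready in the cytoplasm by a complex of the chaperone HSP90 and FK506-binding proteins. The loaded receptor moves to the nucleus and binds DNA, often at a pair of short inverted sites called a glucocorticoid response element. In the fasting liver the receptor is known for raising gluconeogenesis and the breakdown of amino acids, together with glucagon signalling and factors of the C/EBP family.

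Depth was between 21999647 and 45273069 counts per mouse. Levels are given as CPM (counts relative to the total of the library, scaled by the TMM factor of edgeR), which compare 1 gene between mice but not 2 genes with each other, since they are not divided by gene length. A floor of 3 counts lay between 0.0709 and 0.142 CPM, and such floors cover counting error only. Nts itself was counted only in libraries labelled as lacking it. It had 0 counts in all 6 libraries labelled Nts+/+, but 46, 40 and 15 counts in the fed and 12, 4 and 18 counts in the fasted libraries labelled Nts-/-. Counts per gene do not show whether a transcript was intact, and the match of labels to genotypes was not tested. Genotype directions below are therefore those of the labels. Hepatocyte markers were abundant in every library, with 5 markers summing to between 106500 and 135400 CPM, and adipocyte markers summed to at most 0.260 CPM. In bulk liver, fewer cells of a type and less RNA per cell cannot be told apart.

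Averaged over both genotypes, fasting changed 5 of the 10 genes at an adjusted p under 0.05 (edgeR's quasi-likelihood test with Benjamini-Hochberg adjustment over all genes tested), against a background of 32.8% of all genes called. Cebpd, Cebpb, Sgk1 and Fkbp5 rose, and Nr3c1 fell. The rise of Cebpd was 2.57-fold (95% interval 1.90 to 3.47), that of Cebpb 2.21-fold (1.51 to 3.23), that of Sgk1 1.82-fold (1.35 to 2.45) and that of Fkbp5 1.43-fold (1.10 to 1.85). The receptor gene fell to 0.723 of its fed level (0.617 to 0.849). Tested within Nts+/+ livers alone, 2 of the 10 were called, both higher, where 18.1% of all genes were called (8.91% higher and 9.19% lower). Within Nts-/- livers 3 of the 10 were called, 2 higher and 1 lower, against 16.8% of all genes (7.70% higher and 9.14% lower). Cebpd alone was called within both genotypes, which is 10.0% of the members and close to the 10.7% of all genes called in both. The median log2 fold change of the 10 genes was 0.57 in Nts+/+, 0.66 in Nts-/- and 0.62 on average, and the medians of all tested genes were -0.0032, -0.011 and -0.0071. The 10 genes were chosen with earlier results of these data known, so their counts and medians are a description and not a test of the set.

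**Figure D1:**
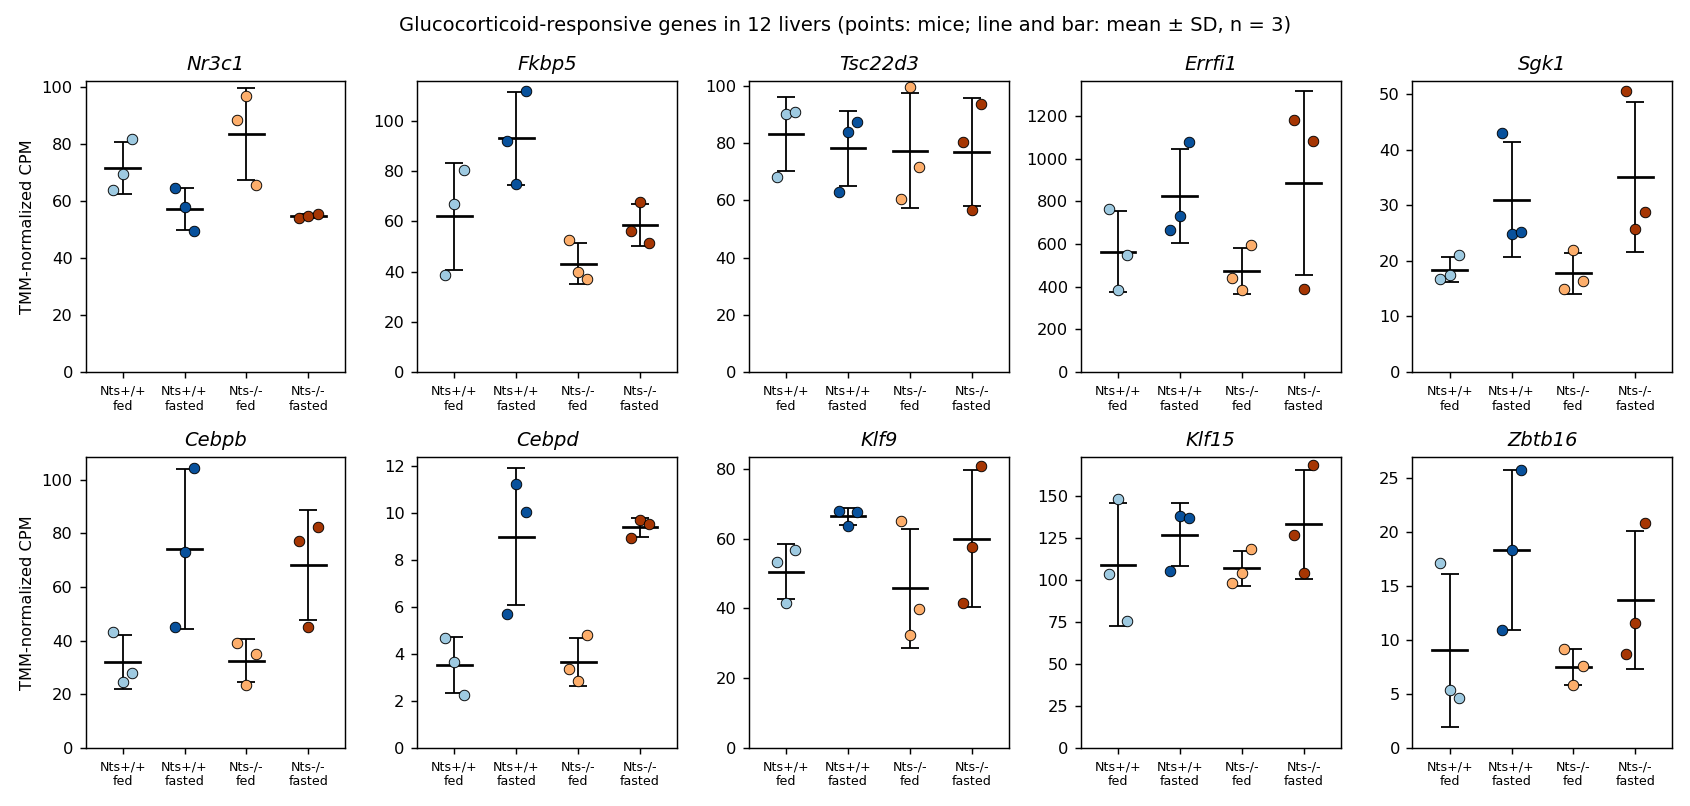
TMM-normalized CPM (vertical axis, starting at 0) of the 10 genes in each of 12 livers, with points for mice and a line and bar for the mean ± SD of 3 mice per group. The fasted points of Cebpd, from 5.69 to 11.2 CPM, lie above all fed points, from 2.26 to 4.79 CPM, in both genotypes, while those of Tsc22d3 overlap in every group.

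Nr3c1 (ENSMUSG00000024431, chromosome 18) encodes the receptor itself, a steroid-activated transcription factor. Its level was 63.7, 69.4 and 81.6 CPM in the 3 fed Nts+/+ livers and 64.4, 57.7 and 49.6 CPM in the 3 fasted ones. Fed Nts-/- livers had 88.2, 96.6 and 65.6 CPM, and fasted ones 53.9, 54.8 and 55.3 CPM. Fed and fasted livers did not overlap in Nts-/- mice, but in Nts+/+ mice fed mouse 254 was below fasted mouse 265. The receptor gene of Nts-/- livers fell from 83.5 ± 16.0 (SD, n = 3) to 54.6 ± 0.700 CPM (SD, n = 3), a log2 fold change of -0.61 (standard error 0.15, edgeR adjusted p = 0.0144). The call was lost without mouse 277, 303, 284 or 290, where the log2 fold change was -0.57, -0.48, -0.60 and -0.61 and edgeR's adjusted p was 0.0566, 0.0688, 0.0522 and 0.0509. The value in Nts+/+ livers was -0.32 (95% interval -0.65 to 0.0037, edgeR adjusted p = 0.159). Averaged over both genotypes it was -0.47 (standard error 0.11, edgeR adjusted p = 0.00458), and it lay between -0.54 and -0.40 with any 1 mouse left out and was called each time. Of the 10 genes, Nr3c1 varied least within groups. The pooled SD of its log2 CPM was 0.20, where the median over all tested genes was 0.24.

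Fkbp5 (ENSMUSG00000024222, chromosome 17 from 28399095 to 28517524) encodes a co-chaperone that lowers the receptor's affinity for its hormone and is itself induced by the receptor, which makes it a feedback gene. In fed Nts+/+ livers it was at 38.5, 66.8 and 80.6 CPM, and in fasted ones at 92.1, 75.0 and 112 CPM. The fed Nts-/- livers had 52.4, 39.7 and 37.2 CPM and the fasted ones 56.3, 67.6 and 51.3 CPM. Fed mouse 323 overlapped the fasted Nts+/+ mice, and fed mouse 277 overlapped the fasted Nts-/- mice. On average over the genotypes Fkbp5 rose by a log2 fold change of 0.51 (standard error 0.17, edgeR adjusted p = 0.0372). The call was a narrow one. The adjusted p was between 0.0533 and 0.0853 when mouse 257, 265, 322, 303, 319, 284 or 290 was left out, with log2 fold changes from 0.44 to 0.54, and 0.052 with no filter on low counts. Within genotypes the values were 0.59 in Nts+/+ (95% interval 0.060 to 1.11, edgeR adjusted p = 0.115, and 0.82 with adjusted p = 0.0413 without mouse 323) and 0.44 in Nts-/- (-0.091 to 0.96, edgeR adjusted p = 0.245).

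Tsc22d3 (ENSMUSG00000031431, chromosome X from 140539528 to 140600659) encodes GILZ, a leucine zipper protein through which glucocorticoids dampen inflammatory signalling. Its levels were 68.1, 90.3 and 90.7 CPM in fed and 63.0, 83.9 and 87.5 CPM in fasted Nts+/+ livers, and 60.6, 99.5 and 71.7 CPM in fed and 80.3, 56.5 and 93.7 CPM in fasted Nts-/- livers. All 4 groups overlapped. The averaged fasting log2 fold change was -0.047 with a 95% interval from -0.38 to 0.29 (edgeR adjusted p = 0.846), which leaves room for a change of up to 1.22-fold upwards or down to 0.769 of the fed level.

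Errfi1 (ENSMUSG00000028967, chromosome 4 from 150853919 to 150868892) encodes MIG6, an inhibitor of the epidermal growth factor receptor that glucocorticoids induce in liver. It stood at 763, 383 and 551 CPM in fed and 666, 730.2 and 1078 CPM in fasted Nts+/+ livers. In fed Nts-/- livers it was 442, 384 and 595 CPM, and in fasted ones 1182, 391 and 1084 CPM. Fasted mouse 290 had a level within the fed range, while the other 2 fasted Nts-/- mice were above all 6 fed mice. The averaged log2 fold change of 0.72 (standard error 0.28, edgeR adjusted p = 0.069) missed the threshold. It passed without mouse 290 (0.91, edgeR adjusted p = 0.00467) or mouse 254 (0.87, adjusted p = 0.048), and in DESeq2's Wald test (0.74, adjusted p = 0.0112). Within Nts-/- livers it was 0.90 (edgeR adjusted p = 0.142), and 1.26 (edgeR adjusted p = 0.0177) without mouse 290.

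Sgk1 (ENSMUSG00000019970, chromosome 10 from 21882184 to 21999903) encodes the serum- and glucocorticoid-regulated kinase, which acts on ion channels and on FOXO factors. Promoter windows of 300 bases, from 250 before to 50 after a transcription start, were found in the RefSeq table of GRCm38.p6 for 7 of the 10 genes. They were searched on both strands for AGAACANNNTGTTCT, the consensus of the response element, whose 2 arms are the 6-base sites AGAACA and TGTTCT. Of 15 windows of these genes, 4 held a 6-base site, and 1 of these 4 held the full motif. All 4 belong to Sgk1, which has 6 of the 15 windows, or to Tsc22d3, which has 3. The windows of the other genes held no site. Over all 32851 windows 0.00913% held the full motif, in 3 windows, and 19% held a 6-base site. The window with the full motif is 1 of 6 windows of Sgk1, at chr10:21993640-21993939 on the plus strand, and is shown because it belongs to a gene that rose on fasting. Capitals mark the 2 arms of the motif, which lies 189 to 175 bases before the start.
Sgk1: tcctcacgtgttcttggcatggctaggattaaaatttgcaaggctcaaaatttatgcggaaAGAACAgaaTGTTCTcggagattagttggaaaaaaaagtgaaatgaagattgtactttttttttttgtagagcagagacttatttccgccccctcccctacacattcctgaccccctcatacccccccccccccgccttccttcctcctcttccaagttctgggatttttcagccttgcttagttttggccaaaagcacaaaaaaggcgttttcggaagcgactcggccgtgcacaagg
The single windows of Fkbp5 and Cebpb, which also rose, held neither the motif nor a 6-base site, and a window of Tsc22d3, which was not called, held a 6-base site 185 to 180 bases before the start. A match is a description of letters in the window, not evidence of binding.

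The level of Sgk1 was 16.7, 17.5 and 21.0 CPM in fed and 42.9, 24.9 and 25.1 CPM in fasted Nts+/+ livers. It was 15, 21.9 and 16.4 CPM in fed and 50.5, 25.8 and 28.9 CPM in fasted Nts-/- livers. All 6 fasted mice were above all 6 fed mice, and in each genotype 1 fasted mouse, 265 or 284, stood well above the other 2. Averaged over the genotypes, Sgk1 rose by 0.87 on the log2 scale (standard error 0.20, edgeR adjusted p = 0.00565), and it stayed between 0.70 and 0.96 and was called with any 1 mouse left out. Within Nts-/- livers Sgk1 rose by 0.98 (standard error 0.28, edgeR adjusted p = 0.0321). That call was lost without mouse 284 (0.63, edgeR adjusted p = 0.113), 277 (0.87, adjusted p = 0.122) or 319 (0.93, adjusted p = 0.0821), and with no filter on low counts (adjusted p = 0.0592). In Nts+/+ livers the value was 0.75 (standard error 0.28, edgeR adjusted p = 0.0842), and it passed in DESeq2's Wald test (adjusted p = 0.0325). There it was 0.46 without mouse 265, and 0.76 with an adjusted p of 0.032 without mouse 284, which is not one of the mice compared but adds to the shared estimate of the spread.

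Cebpb and Cebpd encode C/EBPβ and C/EBPδ, leucine zipper transcription factors of hepatic metabolism and the acute phase response. Cebpd (ENSMUSG00000071637, chromosome 16 from 15887286 to 15891031) had 4.65, 3.64 and 2.26 CPM in fed and 5.69, 11.2 and 10.0 CPM in fasted Nts+/+ livers. Its Nts-/- levels were 3.33, 2.82 and 4.79 CPM when fed and 8.93, 9.70 and 9.52 CPM when fasted. All fasted mice were above all fed mice. Cebpd rose by a log2 fold change of 1.35 in Nts+/+ (standard error 0.29, edgeR adjusted p = 0.00675) and of 1.37 in Nts-/- livers (standard error 0.29, edgeR adjusted p = 0.00615). The averaged value was 1.36 (standard error 0.20, edgeR adjusted p = 0.000248), the smallest p of the 10 genes and rank 692 of 13812. All 3 calls held with any 1 mouse left out.

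Cebpb (ENSMUSG00000056501, chromosome 2 from 167688915 to 167690418) was at 43.4, 24.4 and 27.8 CPM in fed and 45, 73.1 and 105 CPM in fasted Nts+/+ livers. The fed Nts-/- livers had 39.1, 23.6 and 35.0 CPM, and the fasted ones 77.1, 44.9 and 82.6 CPM. Fed and fasted mice did not overlap, although fed mouse 254 and fasted mice 265 and 290 had nearly the same level. On average Cebpb rose by a log2 fold change of 1.14 (standard error 0.25, edgeR adjusted p = 0.00528). In Nts+/+ livers it rose by 1.22 (standard error 0.35, edgeR adjusted p = 0.0364). This call was lost without mouse 257 (1.06, edgeR adjusted p = 0.12), 323 (1.14, 0.0939), 282 (1.23, 0.0937) or 322 (0.89, 0.11), with no filter on low counts (adjusted p = 0.1), and with only the 6 mice compared (adjusted p = 0.0645). For Nts-/- livers the value was 1.07 (standard error 0.35, edgeR adjusted p = 0.0618). It passed without mouse 265, 322 or 290, with log2 fold changes of 1.07, 1.07 and 1.30 and edgeR adjusted p of 0.0346, 0.0442 and 0.0433, and also with only the 6 mice compared (0.0347) and in DESeq2 (0.00548).

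The last 3 genes, which encode zinc finger transcription factors, were not called in any fasting comparison. Klf9 (ENSMUSG00000033863, chromosome 19 from 23141226 to 23166911), a factor induced early by glucocorticoids, had 53.4, 41.6 and 56.7 CPM in fed and 67.9, 63.7 and 67.6 CPM in fasted Nts+/+ livers, and 65.0, 32.4 and 39.9 CPM in fed and 41.7, 57.5 and 80.9 CPM in fasted Nts-/- livers. It did not overlap between fed and fasted Nts+/+ mice, but it did in Nts-/- mice. Its averaged log2 fold change was 0.39 (95% interval -0.013 to 0.80, edgeR adjusted p = 0.129). Leaving out mouse 277 gave 0.56 (edgeR adjusted p = 0.0189), and leaving out mouse 284 gave 0.50 (0.0448).

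Klf15 (ENSMUSG00000030087, chromosome 6 from 90462576 to 90475238), a regulator of amino acid breakdown and gluconeogenesis, had 103, 148 and 75.3 CPM in fed and 105, 138 and 137 CPM in fasted Nts+/+ livers. It had 98.0, 104 and 118 CPM in fed and 126, 104 and 168 CPM in fasted Nts-/- livers. Fed and fasted mice overlapped in both genotypes. The averaged log2 fold change of Klf15 was 0.27 (95% interval -0.080 to 0.62, edgeR adjusted p = 0.225), and 0.41 (adjusted p = 0.0455) without mouse 257.

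Zbtb16 (ENSMUSG00000066687, chromosome 9 from 48654311 to 48835945) encodes PLZF, a repressor that glucocorticoids induce in many cell types. It was at 17.1, 5.33 and 4.57 CPM in fed and 10.9, 18.3 and 25.8 CPM in fasted Nts+/+ livers, and at 9.13, 5.83 and 7.53 CPM in fed and 8.66, 11.6 and 20.8 CPM in fasted Nts-/- livers. Fed mouse 254 stood apart from the other 2 fed Nts+/+ mice and lay within the fasted range. Its averaged value was 0.95 on the log2 scale (standard error 0.38, edgeR adjusted p = 0.0861), and 1.39 (adjusted p = 0.00563) without mouse 254. In Nts+/+ livers the values were 1.02 (edgeR adjusted p = 0.224) with and 1.89 (adjusted p = 0.026) without that mouse. Zbtb16 varied most within groups, with a pooled SD of log2 CPM of 0.70, above that of 94.4% of tested genes, followed by Errfi1 with 0.57 and Cebpb with 0.48.

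**Figure D2:**
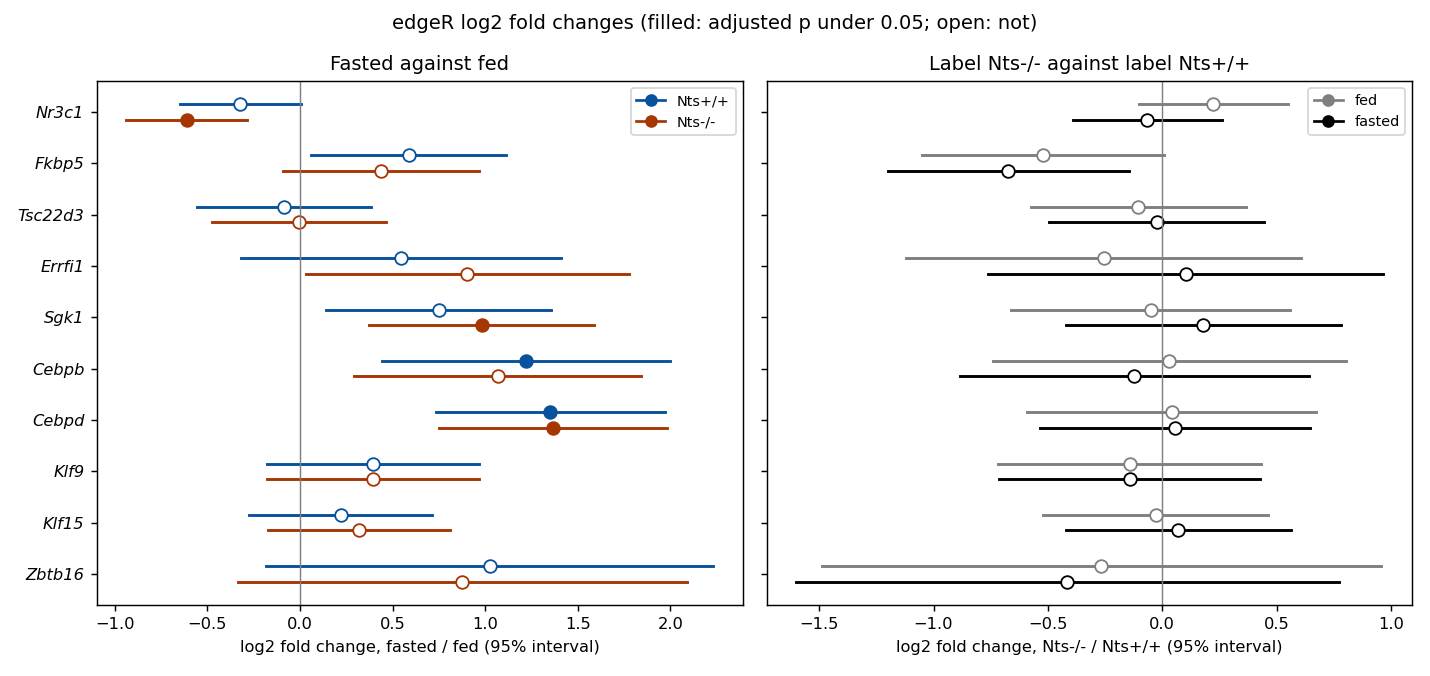
Log2 fold changes of the 10 genes (horizontal axis) with 95% intervals from edgeR, fasted against fed on the left and label Nts-/- against label Nts+/+ on the right. Filled points passed an adjusted p of 0.05. On the left these are Cebpb and Cebpd in Nts+/+ and Nr3c1, Sgk1 and Cebpd in Nts-/- livers, and on the right every point is open.

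Groups of 3 fed and 3 fasted mice did not overlap for Sgk1, Klf9, Cebpb and Cebpd in Nts+/+ livers, all higher when fasted, where 36.0% of all genes had groups that did not overlap in either direction. In Nts-/- livers they did not overlap for Sgk1, Cebpb and Cebpd, which were higher, and Nr3c1, which was lower, against 35.2% of all genes. Cell type markers also moved with fasting, against a background of 32.8% of all genes called on average. The summed CPM of 5 cholangiocyte markers was between 34.1 and 49.7 in fed and between 13.7 and 26.2 in fasted Nts+/+ livers, and between 33.4 and 35.7 against between 15.1 and 29.6 in Nts-/- livers. Of the 4 of these markers tested 1 fell on average. Spp1 made up most of the sums, with means of 34.5 CPM in fed and 17.3 CPM in fasted Nts+/+ livers. In Nts-/- livers its means were 29.2 and 17.4 CPM. The mean of Sox9 rose in Nts+/+ and fell in Nts-/- livers, and that of Epcam did the reverse. Of 5 stellate cell markers 4 fell on average, and of 5 sinusoidal endothelial markers 3 fell and 1 rose. Of 5 hepatocyte markers 2 rose and 2 fell. Of 7 Kupffer cell markers 2 fell, with sums between 484 and 549 CPM in fed and between 235 and 410 CPM in fasted Nts+/+ livers. In Nts-/- livers the Kupffer sums overlapped, from 312 to 405 CPM in fed and from 308 to 466 CPM in fasted mice, and 0 of 7 markers were called there. Their part in the responses above was not tested. Genes of the adrenal cortex, the source of the steroid, summed to between 1.09 and 1.76 CPM in all livers, nearly all of it from Star. Cyp11b1 had 0 counts in every liver, and Cyp11a1 and Cyp21a1 had 0 or 1 count each.

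Within groups the 10 genes did not share 1 order of mice. Fed mouse 254 was the highest of its group for Errfi1, Zbtb16, Cebpb and Cebpd and the lowest for Nr3c1, Fkbp5, Tsc22d3 and Sgk1. Fasted mouse 265 was the lowest of its group for 6 genes (Tsc22d3, Errfi1, Zbtb16, Klf15, Cebpb and Cebpd) while it was the highest for Nr3c1, Sgk1 and Klf9. Mouse 322, in the same group, was the highest for 5 genes and the lowest for Nr3c1. Among fasted Nts-/- mice, 290 was the lowest for Tsc22d3, Errfi1, Sgk1, Klf15 and Cebpb but the highest for Fkbp5 and Cebpd. Mouse 295, the deepest library, was the highest of that group for 6 genes (Nr3c1, Tsc22d3, Zbtb16, Klf9, Klf15 and Cebpb) and the lowest only for Fkbp5.

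**Figure D3:**
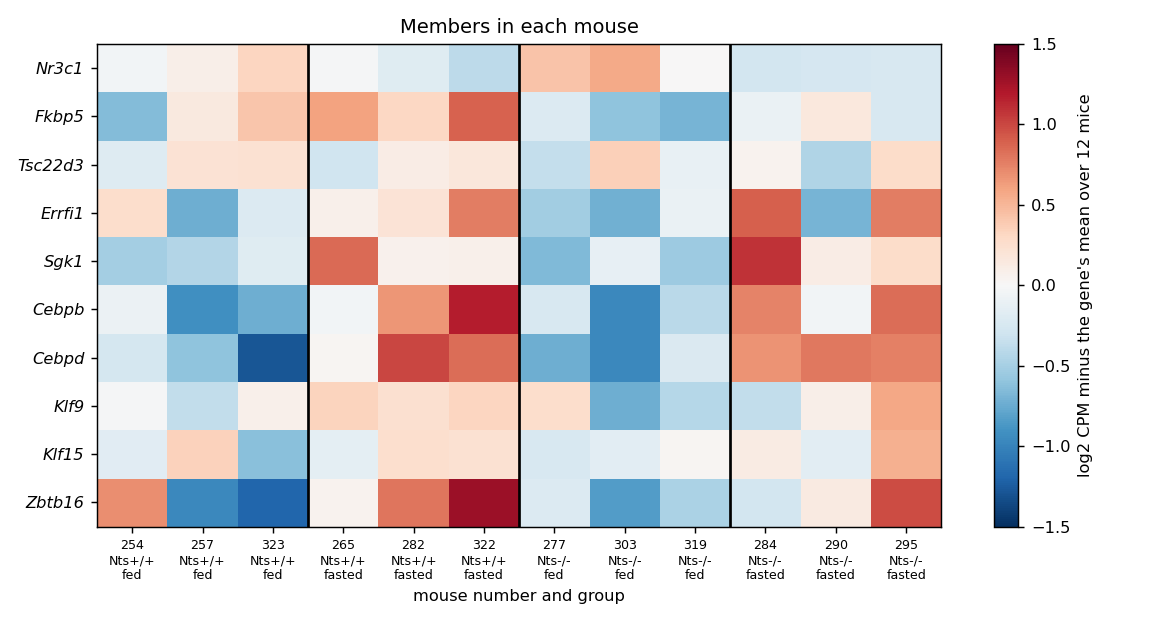
Each cell is the log2 CPM of 1 gene in 1 mouse minus that gene's mean over 12 mice (colour scale from -1.5 to 1.5), with mice grouped by label and feeding state. Cebpb and Cebpd are mostly blue in fed and red in fasted groups, Nr3c1 shows the opposite order with paler colours, and mice of 1 group differ for Zbtb16 and Errfi1.

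By genotype label, none of the 10 genes passed an adjusted p of 0.05 in edgeR's test, in fed livers (background 0.00% of 13812 genes called) or in fasted livers (0.00%), and DESeq2's Wald test also called 0 of the 10. At an unadjusted p under 0.05, 0 of the 10 genes were found in fed and 1 in fasted livers, against 876 and 685 of all genes. The gene was Fkbp5. In fasted livers its 3 values in the libraries labelled Nts-/-, from 51.3 to 67.6 CPM, were all below the 3 labelled Nts+/+, from 75.0 to 112 CPM. The log2 fold change was -0.67 (95% interval -1.20 to -0.15, edgeR adjusted p = 0.917), and groups did not overlap for 12.2% of all genes (5.29% higher and 6.88% lower). In fed livers the groups overlapped through mouse 254, and the log2 fold change was -0.52 (95% interval -1.05 to 0.0057, edgeR adjusted p = 0.777). A contrast averaged over both feeding states, added after these values were seen, gave -0.60 (95% interval -0.97 to -0.22, edgeR adjusted p = 0.76), with means of 50.7 CPM in the libraries labelled Nts-/- and 77.5 CPM in those labelled Nts+/+. In this contrast 0 of 13812 genes passed in edgeR (background 0.00%; 859 at an unadjusted p under 0.05) and 15 in DESeq2, with Fkbp5 not among them. All Kupffer cell marker sums in fed libraries labelled Nts-/- (312 to 405 CPM) were below those labelled Nts+/+ (484 to 549 CPM), and 6 of the 7 markers did not overlap, where 10.7% of all genes did not (4.81% higher and 5.85% lower), but 0 of 7 were called. In fasted livers these sums overlapped, at 308 to 466 and 235 to 410 CPM. The part of these cells in the levels of Fkbp5 was not tested.

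The other 9 genes had unadjusted edgeR p above 0.05 in both genotype comparisons, with log2 fold changes from -0.27 (Zbtb16) to 0.22 (Nr3c1) in fed livers and from -0.42 (Zbtb16) to 0.18 (Sgk1) in fasted livers. The intervals were wide for several of them. For Zbtb16 in fasted livers it ran from -1.60 to 0.77, for Errfi1 from -0.76 to 0.97 and for Cebpb from -0.89 to 0.64. It was narrower for the receptor gene Nr3c1, from -0.39 to 0.26.

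The fasting response itself was compared between labels by the interaction of genotype and feeding state. None of the 10 genes passed (edgeR adjusted p from 0.901 to 1, background 0.00% of 13812 genes called, 663 at an unadjusted p under 0.05, and 0 of the 10 in DESeq2). The fall of Nr3c1, called within Nts-/- and not within Nts+/+ livers, differed by -0.29 between them (95% interval -0.75 to 0.17, edgeR adjusted p = 0.901). For Sgk1 the difference was 0.23 (-0.62 to 1.09, adjusted p = 0.957) and for Cebpb -0.15 (-1.24 to 0.93, adjusted p = 0.972). Differences of Cebpd at 0.015 and Klf9 at -0.000205 were near 0, but their intervals, -0.85 to 0.88 and -0.82 to 0.82, allow a response that differs by a fold of up to 1.84 for Cebpd and 1.77 for Klf9.

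Genes that supply the hormone to the receptor or clear it fell on fasting where they were called. Of 7 listed genes 6 were tested, and 0 rose and 3 fell on average over the genotypes, with a median log2 fold change of -0.37 over the 6, against a background of 16.0% of all genes higher and 16.8% lower. Serpina6, which encodes the corticosteroid-binding globulin that the liver secretes into plasma, was at 334, 483 and 201 CPM in fed and 86.1, 67.2 and 62.0 CPM in fasted Nts+/+ livers. The corresponding levels in Nts-/- livers were 218, 383 and 445 CPM and 127, 40.7 and 70.5 CPM. Each of the 6 fasted mice was below each of the 6 fed mice, a separation whose share among all genes was not counted. Serpina6 fell by 2.19 on the log2 scale (standard error 0.32, edgeR adjusted p = 0.000623), and it was called within both genotypes. Srd5a1, a 5-alpha reductase that takes part in glucocorticoid clearance, fell by 0.94 on the log2 scale (edgeR adjusted p = 0.00451). Hsd11b1, which regenerates active glucocorticoid inside the cell, fell by 0.33 (edgeR adjusted p = 0.0234). Hsd11b2, which inactivates it, was near 0 in all groups and was not tested. Nr3c2, the gene of the mineralocorticoid receptor, had a value of 0.057 (95% interval -0.25 to 0.36). H6pd, also on this list, was not called, but its means went the other way. They were 370 CPM in fed and 416 CPM in fasted Nts+/+ livers, and 318 and 412 CPM in Nts-/- livers. Averaged values were positive for 2 of the 6 genes tested and negative for 4.

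Of 15 chaperones and coregulators of the receptor, all tested, 1 rose and 2 fell, with a median of -0.0074, where 32.8% of all genes were called. Fkbp4, the co-chaperone that competes with FKBP5 on the receptor complex and favours its movement to the nucleus, had 186, 277 and 191 CPM in fed and 133, 122 and 138 CPM in fasted Nts+/+ livers, and 182, 196 and 254 CPM in fed and 111, 93.9 and 144 CPM in fasted Nts-/- livers. Fed and fasted mice did not overlap, and Fkbp4 fell by 0.80 on the log2 scale (standard error 0.14, edgeR adjusted p = 0.000636), in the opposite direction to Fkbp5. Stip1, the adaptor between HSP70 and HSP90, fell by 0.50 (edgeR adjusted p = 0.0351), and Crtc2, a coactivator that answers glucagon signalling, rose by 0.32 (edgeR adjusted p = 0.0252). The HSP90 genes Hsp90aa1 and Hsp90ab1 had values of -0.0097 (95% interval -0.38 to 0.36) and -0.0074 (-0.26 to 0.25). The count of 3 called fell to 1 without mouse 290.

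Of 26 other genes known to be induced by glucocorticoids 25 were tested, and 9 rose and 2 fell on average, with a median log2 fold change of 1.03, where 16.0% of all genes rose and 16.8% fell, with a median of -0.0071. The list, like the others, was chosen with earlier results of these data known, so its counts and median are a description and not a test. By genotype, 4 rose and 1 fell in Nts+/+ livers and 5 rose and 0 fell in Nts-/- livers. With both directions pooled, these 5 of 25 in either genotype are close to the background of 18.1% of all genes called in Nts+/+ and 16.8% in Nts-/- livers. By direction, the background was 8.91% higher and 9.19% lower in Nts+/+ livers, and 7.70% higher and 9.14% lower in Nts-/- livers. Tdo2, the first enzyme of tryptophan breakdown, stood at 888, 972 and 774 CPM in fed and 2520.5, 1785 and 1575 CPM in fasted Nts+/+ livers. In Nts-/- livers it stood at 659, 775 and 1042 CPM and at 2044, 1922 and 1791 CPM. Fed and fasted mice were far apart in both genotypes, and Tdo2 rose by 1.19 on the log2 scale (standard error 0.14, edgeR adjusted p = 4.09e-05).

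Got1, the cytosolic aspartate aminotransferase, rose by 1.16 (edgeR adjusted p = 0.000325) and G6pc, the last enzyme of glucose release, by 1.15 (edgeR adjusted p = 0.00203). Lcn2, an acute phase protein, rose by 2.57 (edgeR adjusted p = 0.00191). Tdo2, Got1 and Lcn2 were called within both genotypes. The other genes that rose were Pck1, Per1, Angptl4, Mt1 and Cdkn1a. Rgs2, a regulator of G protein signalling, fell by 0.63 (edgeR adjusted p = 0.00754), and Arrdc2, an arrestin family gene, fell by 0.44 (edgeR adjusted p = 0.0293). Not all known targets passed. Tat, the tyrosine aminotransferase long used as a marker of glucocorticoid action in liver, had a value of 0.39 (95% interval 0.021 to 0.76, edgeR adjusted p = 0.0989). None of the genes of these 3 lists was called in a genotype comparison or in the difference of the fasting responses.

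**Figure D4:**
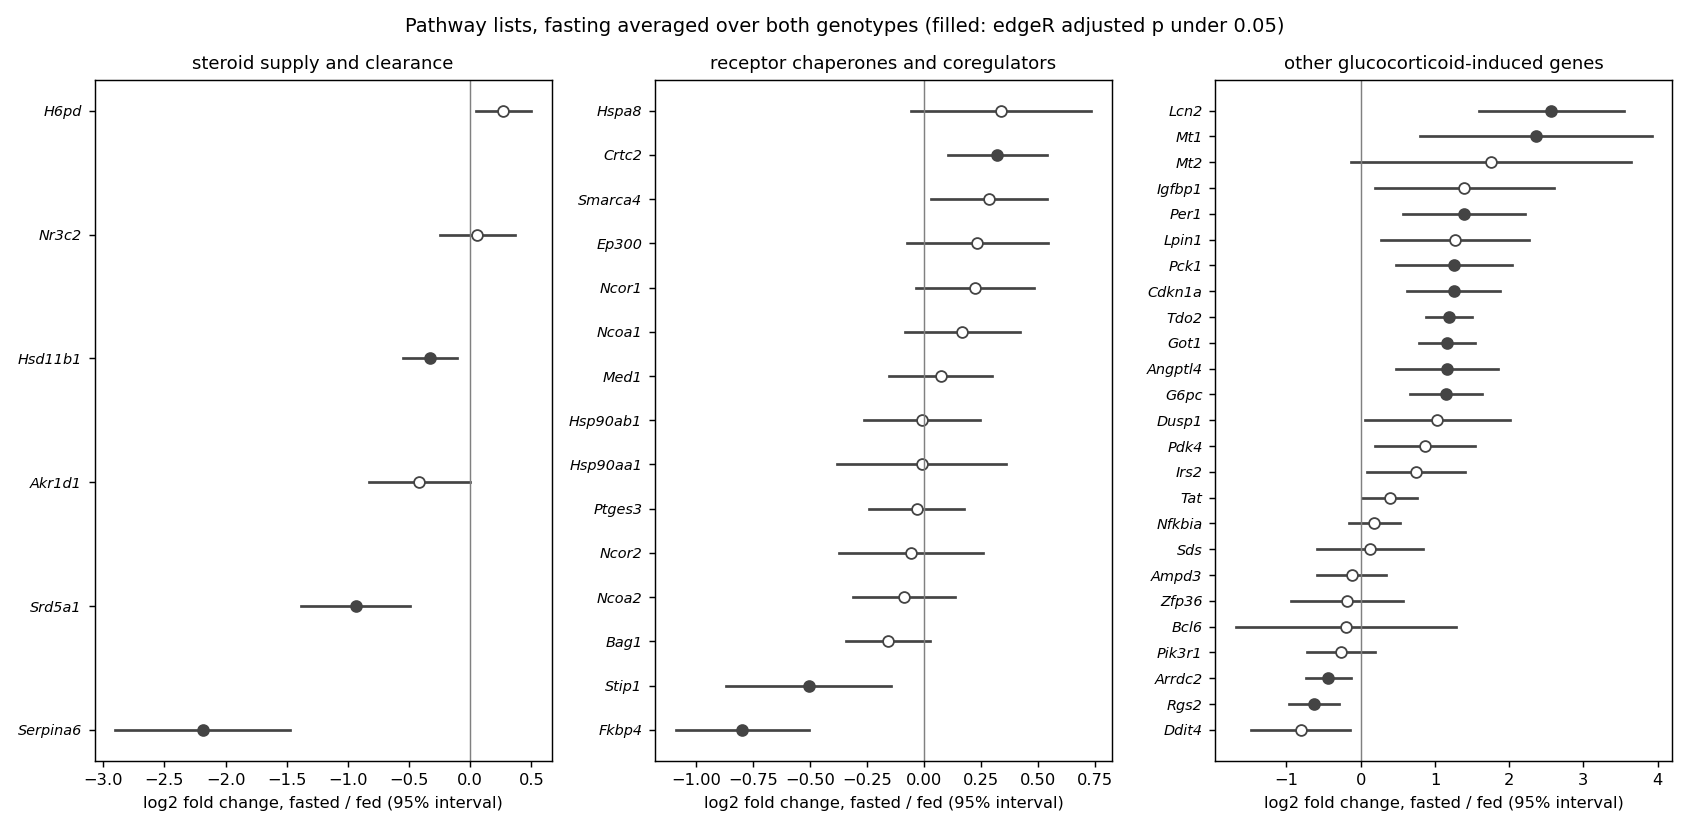
Log2 fold changes on fasting averaged over both genotypes (horizontal axes, each panel with its own scale) with 95% intervals from edgeR, for 6 genes of steroid supply and clearance, 15 receptor chaperones and coregulators and 25 other glucocorticoid-induced genes. Filled points passed an adjusted p of 0.05, from Serpina6 at -2.19 to Lcn2 at 2.57.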

How the data were processed

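Liver RNA of 12 mice was measured in 4 groups of 3. Per the labels, the authors trimmed reads with Trimmomatic and used RSEM on the GRCm38 genome, and the deposited table holds expected counts, which estimate how many reads came from a gene, are not always whole (7.94% are not) and are not scaled between mice. The aligner and annotation are not given in the sources used here, and 0 columns belong to other samples.

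Expected counts were rounded. In R 4.3.3, edgeR 4.0.16 kept 13812 genes (filterByExpr), scaled by TMM and ran robust quasi-likelihood tests in 1 model of 12 mice and 4 group means. The common biological coefficient of variation was 0.202. Benjamini-Hochberg adjusted p under 0.05 over all tested genes was called. The labels do not say that mice of a group came from separate litters, so p-values measure the spread between these mice. Log2 CPM used a prior count of 2.

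The members and lists were chosen with earlier results of these data known. Named are all 10 members, the genes of each list with the smallest averaged fasting p among those called (up to 4 each way, 3 for clock genes) and, for each called member, the 3 tested genes with the most similar log2 CPM. For 1 member, 1 of these genes is not reported here. Other genes named were chosen after their values were seen. Promoter windows came from RefSeq (GRCm38.p6), of which 15 belong to 7 members. In the list of steroid supply 1 symbol was written H6pd, as the table has it.

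The steps after the filter were tested on simulated counts with the depths of these libraries. These counts were drawn from the kind of model that edgeR itself fits, with the spread it estimated from these data. For averaged fasting 78 of 100 genes changed 2-fold and 96 of 100 changed 4-fold were recovered, with 2 calls among 13612 unchanged genes. Within genotypes, 58 of 100 genes changed 2-fold were recovered in Nts+/+ and 56 of 100 in Nts-/- livers. The numbers were 92 and 88 for genes changed 4-fold. Far more genes were called on fasting in the data than were changed in the simulation, and no change by genotype was simulated. As alternatives, scaling was done by RLE or upper quartile, the filter was dropped or raised to 10 counts in every mouse, DESeq2 1.42.0 (Wald test) took the place of edgeR, the fit was limited to the groups compared, calls were made at 0.10 or also needed a log2 fold change of 1 or more in size, and each mouse was left out in turn.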

Additional observations from a re-analysis of the deposited data

How the results depend on the processing

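No paired analysis was possible because the labels give the groups no shared replicate numbers. Of 530 values under alternatives that kept all mice, 505 kept their direction and their side of the threshold, 9 lost a call, 9 gained one and 7 turned sign. Of 840 values with 1 mouse left out, the numbers were 720, 18, 13 and 89. Among the alternatives that kept all mice, calls at 0.10 and calls that also needed a log2 fold change of 1 or more used the main fit. Their values could not turn sign. Calls could only be gained at 0.10 and only be lost with the fold change. Values that turned sign belonged to genes that were not called, and causes were not tested. The count of members called in Nts+/+ livers was 1 with no filter or with only the groups compared, and 1 to 3 with a mouse left out (1 without 257, 282 or 322). In Nts-/- livers it was 5 in DESeq2, 1 where calls also needed a log2 fold change of 1 or more in size, and 1 to 4 with a mouse left out (1 without 277 or 284). On average it was 2 with that fold change and 4 to 7 with a mouse left out. Of all genes, that fold change left 911 in Nts+/+, 915 in Nts-/- and 1082 on average, and leaving out a mouse gave 1224 (without 282) to 2770, 1358 (without 277) to 2631 and 3729 to 4594. It left 1 called gene of steroid supply and 0 chaperones, whose count was 1 to 4 with a mouse left out, and an adjusted p under 0.10 gave 18 other glucocorticoid-induced genes. Genes called by genotype numbered 12 in DESeq2, 1 with no filter and 0 to 2 with a mouse left out in fed livers (2 without 323 or 319). In fasted livers there was 1 in DESeq2 and 1 with only the groups compared. For the difference of responses there were 2 in DESeq2 and 0 to 1 with a mouse left out (1 without 323). For the averaged genotype contrast there were 15 in DESeq2, 1 with no filter, 1 at an adjusted p under 0.10 and 0 to 4 with a mouse left out (4 without 323).

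With all mice kept, the log2 fold change of Tsc22d3 on fasting in Nts-/- livers, -0.0068, was 0.0086 with RLE, 0.010 in DESeq2 and 0.0027 with no filter. For Klf9, the difference of responses was 0.013 with RLE, 0.0060 with upper-quartile scaling, 0.011 in DESeq2 and 0.017 with at least 10 counts in every mouse. Upper-quartile scaling put the median of all genes at -0.044 in Nts+/+ fasting, against -0.0032.

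The following log2 fold changes of members that were not called turned sign with some mouse left out. The range for fasting in Nts+/+ livers was -0.21 to 0.057 for Tsc22d3. The range for fasting in Nts-/- livers was -0.17 to 0.23 for Tsc22d3. The range for averaged fasting was -0.13 to 0.070 for Tsc22d3. The ranges by genotype label in fed livers were -0.33 to 0.046 for Tsc22d3, -0.47 to 0.018 for Errfi1, -0.23 to 0.061 for Sgk1, -0.58 to 0.59 for Zbtb16, -0.48 to 0.048 for Klf9, -0.24 to 0.26 for Klf15, -0.13 to 0.31 for Cebpb and -0.20 to 0.29 for Cebpd. The ranges by genotype label in fasted livers were -0.16 to 0.020 for Nr3c1, -0.19 to 0.15 for Tsc22d3, -0.17 to 0.46 for Errfi1, -0.18 to 0.48 for Sgk1, -0.42 to 0.054 for Klf9, -0.14 to 0.22 for Klf15, -0.38 to 0.21 for Cebpb and -0.19 to 0.25 for Cebpd. The ranges for the difference of the fasting responses were -0.38 to 0.11 for Fkbp5, -0.085 to 0.31 for Tsc22d3, -0.13 to 0.53 for Sgk1, -0.9998 to 0.18 for Zbtb16, -0.27 to 0.35 for Klf9, -0.19 to 0.30 for Klf15, -0.43 to 0.18 for Cebpb and -0.23 to 0.25 for Cebpd. The ranges by genotype label averaged over both feeding states were -0.17 to 0.025 for Tsc22d3, -0.21 to 0.10 for Errfi1, -0.12 to 0.21 for Sgk1, -0.57 to 0.094 for Zbtb16, -0.085 to 0.16 for Klf15, -0.18 to 0.12 for Cebpb and -0.072 to 0.18 for Cebpd.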

Other observations

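Clock genes are described because Per1, Klf9 and Fkbp5 follow the daily rhythm of glucocorticoids in many tissues, and the hour of collection is not given. Of 11 clock genes, all tested, 5 rose and 1 fell on fasting averaged over both genotypes (edgeR adjusted p under 0.05, background 32.8%), with a median log2 fold change of 0.55. Ciart, a repressor of the core clock, was between 0.0403 and 0.147 CPM in the 6 fed livers, where a floor of 3 counts is up to 0.133 CPM, and between 0.325 and 1.33 CPM in the 6 fasted livers. Dbp and Tef, which encode clock output factors of the PAR leucine zipper family, rose by 1.95 and 0.96 on the log2 scale (edgeR adjusted p = 0.00559 and 0.00157). Dbp in mouse 295, at 8.84 CPM, was above the other 5 fasted livers, which ranged from 1.06 to 2.37 CPM. Among all livers, that of mouse 295 also had the highest Nr1d1 (57.2 CPM) and Nr1d2 (49.4 CPM) and the lowest Arntl (13.4 CPM). Npas2, a partner of BMAL1, fell by 1.40 (edgeR adjusted p = 0.000261), from between 10.9 and 15.1 CPM in fed to between 2.22 and 7.07 CPM in fasted livers. No clock gene was called by genotype label or in the difference of the fasting responses. The part of daily phase in the responses of the glucocorticoid genes was not tested.

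For the 5 members called on averaged fasting, the genes with the most similar pattern were found by the root mean square difference of log2 CPM, centred on each gene's mean, over 12 mice. For Nr3c1 these were Acadsb (0.113), Nkiras2 (0.116) and Pam (0.116). For Cebpd they were Pla2g12a (0.203), Lpin2 (0.263) and Igfbp2 (0.317), and for Fkbp5 they included Setdb2 (0.229) and Ctla2a (0.264). Ciapin1 (0.248), Vnn3 (0.250) and Gm4285 (0.253) were nearest to Sgk1, and Sel1l3 (0.279), Zfp9 (0.302) and Cln8 (0.303) to Cebpb. These values describe likeness in these 12 livers, with no test.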
